A study of Homo sapiens with 4 samples.

Results

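Long intergenic non-coding RNA (lincRNA) genes that were well expressed in HepG2 cells were examined for their levels and for their response to melatonin. A gene was taken when the files gave it the biotype lincRNA, a gene length of at least 500 bp and an FPKM (fragments mapped to a gene, divided by its length and by the library size) of at least 2 in any of the 4 libraries. NEAT1, MALAT1, H19, GAS5, ZFAS1 and the SNHG genes were left out by name, which removed 3 genes that met the other conditions. The names were those in the files, so LINC02001, which RefSeq calls SNHG30, stayed in. The rule gave 195 genes of the 58302 listed, or 195 of the 5626 lincRNA genes of that length, of which 3488 had no read in any library. The genes were thus chosen by their measured FPKM in these libraries, so their levels are a description and no test was made of them. Just inside the limit were BX890604.1 with a highest FPKM of 2.00 and AL645933.2 with 2.01, and just outside were AL132657.1 with 1.99 and FAM157C with 1.96.

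HepG2 is a human cell line that the labels call hepatocellular carcinoma and wild type. The cells were grown in MEM medium with 10% serum and were treated with 1 mM melatonin or with the solvent DMSO for 24 h or 48 h. The question of the series was how melatonin changes gene expression in these cells. Each of the 4 conditions (DMSO or melatonin at 24 h, and the same at 48 h) had 1 library, so no difference between conditions has a replicate check and no p-value is given.

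lincRNAs are spliced or single-exon transcripts without a long open reading frame, mostly made by RNA polymerase II. They are usually less abundant and more restricted to cell types than mRNAs. Some act in trans, such as NORAD, which binds Pumilio proteins in the cytoplasm. Others affect the gene next to them, host a microRNA in an intron or exon, or are transcribed from an active enhancer or a shared promoter without a known role of the RNA itself.

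The files held between 21616676 and 23086025 recovered reads on genes per library, and the 195 genes took between 0.164% and 0.255% of them. The share of reads on mitochondrial genes was 20.0% at DMSO 24 h, 16.6% at melatonin 24 h, 9.77% at DMSO 48 h and 11.9% at melatonin 48 h. The mitochondrial share moved with time and, in opposite directions at the 2 times, with melatonin. With mitochondrial genes left out of a TPM total, the median log2 fold change of the lincRNA genes was -0.33 and -0.13 with melatonin at 24 h and 48 h, and 0.33 and 0.43 for 48 h against 24 h in DMSO and in melatonin. Those of all genes were then within 0.03 of 0. The hepatocyte markers were expressed, with ALB between 2717 and 3343 FPKM and HNF4A between 34.9 and 59.5 FPKM. Between DMSO 48 h and melatonin 48 h, AFP went from 1902 to 782 FPKM, TF from 740 to 388 and TTR from 50.6 to 256, and the part of this difference in the results was not tested. Of 8 markers of other cells, 6 stayed under 1 FPKM in each library, and the bile duct and progenitor factor SOX9 (77.1 to 84.1 FPKM) and ACTA2 (2.11 to 3.81) were the exceptions.

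Of the 195 genes, 118 had only a clone-based name, 41 had a LINC number, 17 were named for a coding gene and 19 had another symbol. Their median length was 1349 bp (504 to 17599 bp), against 4982 bp for the 9579 nuclear protein-coding genes that met the same length and level conditions. These protein-coding genes are the comparison set used throughout. The median highest FPKM was 3.48 for the lincRNA genes and 9.20 for the comparison set. The median GC content was 49.6% against 48.2%. Of the 195 genes, 186 were found in GENCODE 44, where 182 are now typed as lncRNA, 2 as protein-coding (AC093323.1 and LINC00843) and 2 as pseudogenes.

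Sequences are shown first for the 7 genes that hold an annotated microRNA on their strand, since a host transcript carries that small RNA. The mature sequences (RefSeq, GRCh38.p14) of the hosts whose level changed 2-fold in any comparison are given 5′ to 3′ with the seed, bases 2 to 8, in capitals.
hsa-miR-34a-5p, in MIR34AHG: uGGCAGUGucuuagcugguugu
hsa-miR-34a-3p, in MIR34AHG: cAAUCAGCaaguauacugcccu
hsa-miR-22-3p, in MIR22HG: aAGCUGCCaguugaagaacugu
hsa-miR-22-5p, in MIR22HG: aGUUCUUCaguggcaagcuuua
hsa-miR-146a-5p, in MIR3142HG: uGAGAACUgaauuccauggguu
hsa-miR-146a-3p, in MIR3142HG: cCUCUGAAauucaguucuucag
hsa-miR-3142, in MIR3142HG: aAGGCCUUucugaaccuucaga
Mature sequences were looked up for 6 of the 7 hosts, and no 2 of these 6 shared a seed. The other host, PVT1, holds annotated microRNAs but was left out of the lookup, so its seeds were not compared. The libraries do not measure mature microRNAs, and the rows of MIR34A, MIR22, MIR146A and MIR3142 were listed at 0 in all 4 libraries.

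Promoter windows, 250 bases before to 50 after the start (RefSeq, GRCh38.p14), are shown for the 4 named genes that passed 2-fold with melatonin and whose start in the table was that of the files. A promoter entry existed for 72 of the 195 genes. Capitals mark 4 motifs searched on both strands, none of which contains another. They included the general promoter element TATAAA and the CCAAT box. The E-box that MYC and clock factors bind was searched as CACGTG. The core of the element that the aryl hydrocarbon receptor binds was searched as GCGTG. AC019069.1 passed 2-fold higher with melatonin at 24 h and LINC02323 at 48 h, and LINC02313 and LINC01637 passed 2-fold lower at 48 h.
AC019069.1 (HK2-DT), chr2:74833938-74834237, minus strand: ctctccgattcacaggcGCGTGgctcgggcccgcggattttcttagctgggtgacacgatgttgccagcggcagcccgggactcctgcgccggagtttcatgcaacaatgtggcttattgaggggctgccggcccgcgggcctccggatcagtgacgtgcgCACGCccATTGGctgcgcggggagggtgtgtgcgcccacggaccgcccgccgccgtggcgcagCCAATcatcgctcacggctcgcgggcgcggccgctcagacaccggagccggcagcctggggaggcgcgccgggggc
LINC02323, chr14:102545004-102545303, plus strand: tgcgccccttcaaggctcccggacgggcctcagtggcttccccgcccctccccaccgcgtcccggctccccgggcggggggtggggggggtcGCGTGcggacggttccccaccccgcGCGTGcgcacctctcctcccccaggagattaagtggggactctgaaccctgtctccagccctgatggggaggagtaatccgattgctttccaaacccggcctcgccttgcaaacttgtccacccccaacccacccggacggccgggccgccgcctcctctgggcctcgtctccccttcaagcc
LINC02313, chr14:31944603-31944902, plus strand: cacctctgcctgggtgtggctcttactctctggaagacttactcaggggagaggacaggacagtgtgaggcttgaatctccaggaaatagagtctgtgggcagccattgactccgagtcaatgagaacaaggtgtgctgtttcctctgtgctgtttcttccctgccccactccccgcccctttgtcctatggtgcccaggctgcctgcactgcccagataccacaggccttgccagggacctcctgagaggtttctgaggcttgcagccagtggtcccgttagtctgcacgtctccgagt
LINC01637, chr22:20956842-20957141, plus strand: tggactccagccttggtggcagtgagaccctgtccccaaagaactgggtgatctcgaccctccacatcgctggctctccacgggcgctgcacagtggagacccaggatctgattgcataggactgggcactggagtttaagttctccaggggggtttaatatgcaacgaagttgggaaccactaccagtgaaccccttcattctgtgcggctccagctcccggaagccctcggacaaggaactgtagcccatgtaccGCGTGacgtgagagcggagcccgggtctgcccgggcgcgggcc
The AC019069.1 window held 2 CCAAT and 2 GCGTG matches, that of LINC02323 held 2 GCGTG matches, that of LINC01637 held 1, and that of LINC02313 held none of the 4 motifs. Over the 72 windows the share with a match was 5.56% for TATAAA (12.0% of all 27305 promoters), 40.3% for CCAAT (35.7%), 13.9% for CACGTG (7.43%) and 43.1% for GCGTG (36.3%). The median GC content of the windows was 66.3% against 58.3%, and the median number of CpG was 24.5 against 14. Only 47 of the 72 windows had a start within 100 bp of that in the files, and the offset reached 59744 bp. The pooled motif, GC and CpG values therefore include windows away from the start of the measured gene. A match is a run of letters and not a bound site.

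Most of the genes were weakly expressed. The highest FPKM lay between 2 and 5 in 141 genes, between 5 and 10 in 33, between 10 and 50 in 18, and above 50 in 3. An FPKM of at least 2 was reached in all 4 libraries by 81 genes and in only 1 library by 54, of which 31 were chosen through DMSO 48 h, 10 through melatonin 48 h, 9 through DMSO 24 h and 4 through melatonin 24 h. The highest value was at DMSO 48 h in 104 genes, at melatonin 48 h in 44, at DMSO 24 h in 29 and at melatonin 24 h in 18. The median FPKM was 2.49 at DMSO 24 h, 2.06 at melatonin 24 h, 2.94 at DMSO 48 h and 2.54 at melatonin 48 h. The choice by highest value therefore leaned on the DMSO 48 h library, which bears on every count below.

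The gene with the highest mean level was AC087273.2 (ENSG00000254054, chr8:17905756-17907887), here with coordinates of hg38, a transcript antisense to FGL1, which encodes a hepatocyte-secreted fibrinogen-like protein. It had 122 FPKM at DMSO 24 h, 143 at melatonin 24 h, 179 at DMSO 48 h and 194 at melatonin 48 h. The libraries at 48 h were above those at 24 h, and melatonin was slightly above DMSO at each time (log2 fold change 0.22 and 0.12). FGL1 on the other strand rose less between the times, from 57.5 to 75.9 FPKM in DMSO, and shared no exonic base with AC087273.2 in GENCODE 44. NORAD, induced by DNA damage and needed for genome stability, had 108, 111, 136 and 134 FPKM in the same order of libraries. Its reads, from 10544 to 15955 per library, were the most of those named here, and the Poisson intervals of melatonin and DMSO overlapped at both times.

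AC005224.4 (ENSG00000266709, chr17:14303854-14305505) was the other gene above 50 FPKM and the one with the largest rise. It had 31.3 FPKM at DMSO 24 h, 85.2 at melatonin 24 h, 7.31 at DMSO 48 h and 40.9 at melatonin 48 h, from 948, 2855, 265 and 1501 reads. The 95% Poisson intervals were 29.3 to 33.3, 82.1 to 88.4, 6.46 to 8.25 and 38.9 to 43 FPKM, and the log2 fold changes with melatonin were 1.42 and 2.33. Both melatonin libraries were above both DMSO libraries, and the DMSO level was lower at 48 h than at 24 h. The gene is 1 exon block inside HS3ST3B1, on its strand, without a shared exonic base. HS3ST3B1, which adds a sulfate group to heparan sulfate, had 15.9, 26.8, 10.4 and 19.1 FPKM, so that host and lincRNA rose with melatonin and were lower at 48 h together (log2 fold change of the host 0.72 and 0.81). Whether the reads came from a separate transcript or from the unspliced host cannot be told apart in these files.

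**Figure D1:**
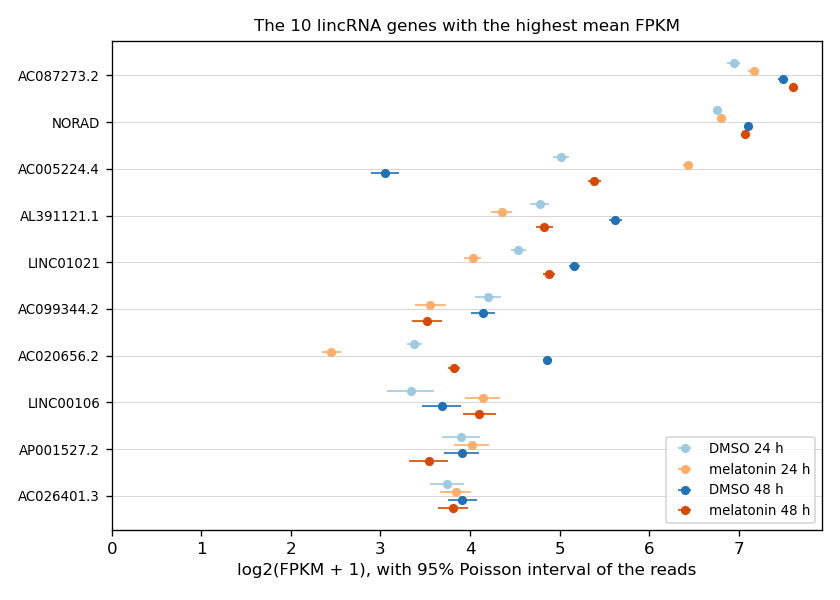
The 10 lincRNA genes with the highest mean FPKM, on an axis of log2(FPKM + 1), with 1 point per library and its 95% Poisson interval from the reads. AC005224.4 shows the widest spread, with both melatonin libraries to the right of both DMSO libraries, while the 4 points of AC026401.3 lie close together.

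Of the next genes, AL391121.1 (TRIM8-DT) starts 356 bp from TRIM8 and runs away from it. It had 26.4 FPKM at DMSO 24 h, 19.4 at melatonin 24 h, 48.3 at DMSO 48 h and 27.4 at melatonin 48 h, highest at DMSO 48 h. Values in fours follow this order of libraries from here on. TRIM8, a ubiquitin ligase, had 49.9, 49.98, 91.5 and 53.4 FPKM and was also highest there. LINC01021 (PURPL), a target and suppressor of p53, had 22.3, 15.3, 34.9 and 28.6 FPKM. It was lower with melatonin at both times, with log2 fold changes of -0.51 and -0.28, short of 2-fold.

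AC020656.2 (chr12:69326574-69331882) lies 16459 bp from LYZ, the gene of lysozyme. It had 9.39, 4.47, 28.1 and 13.1 FPKM, so that each melatonin library had less than its DMSO library and both 48 h libraries had more than both 24 h libraries. LYZ moved the other way with melatonin, from 729 to 861 FPKM at 24 h and from 736 to 1069 at 48 h. AC099344.2 (LINC03037) had 17.4 and 16.7 FPKM in DMSO and 10.8 and 10.4 with melatonin, with no overlap of the treated and control values. LINC00106 was the reverse, with 9.11 and 11.9 FPKM in DMSO and 16.7 and 16.2 with melatonin. AP001527.2, which starts 4 bp from YAP1 on the other strand, and AC026401.3, inside NDE1, varied little, from 10.6 to 15.2 and from 12.4 to 14.1 FPKM.

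The comparisons took in genes that reached 1 FPKM on at least 1 side, called tested here, and a gene counted as changed when log2((FPKM + 1)/(FPKM + 1)) was at least 1 or at most -1. The added 1 understates the change of genes near the limit. At 24 h, 19 of 186 lincRNA genes tested changed, 3 higher and 16 lower with melatonin, against 4.35% of all 13582 genes tested (1.42% higher and 2.93% lower). That is 10.2% of the lincRNA genes, against 0.639% of the comparison set. At 48 h, 28 of 192 changed, 6 higher and 22 lower, which is 14.6%, against 5.72% of all genes (2.39% higher and 3.32% lower) and 2.56% of the comparison set. The 95% Poisson intervals of the 2 libraries lay apart for each of these calls, but they cover counting error only. The same held for every 2-fold call among all genes that met the length and level conditions. These were 24 higher and 86 lower at 24 h, and 125 and 207 at 48 h. Intervals apart thus came with the length and level conditions and are no support particular to the lincRNA genes. Low genes that enter through 1 high library must differ between libraries. The counts of lincRNA genes are therefore read beside the 81 genes at 2 FPKM or more in all 4 libraries, given below.

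The signs of the changes are given as a description, since the level in these libraries chose the genes. A log2 fold change above 0 was found for 59 of 186 genes at 24 h (31.7%, against 53.5% of all genes and 57.9% of the comparison set) and for 71 of 192 at 48 h (37%, against 47.5% and 48.3%). The median log2 fold change was -0.26 at 24 h and -0.15 at 48 h, and that of all genes was 0.02 and -0.02. Values scaled to TPM moved the median of all genes to 0.17 and -0.06, and the lincRNA median relative to it was then -0.34 and -0.16. Among the 123 lincRNA genes with a mean FPKM of at least 2, which 1 high library can still carry, the median was -0.21 and -0.11. Among the 81 genes at 2 FPKM or more in all 4 libraries it was -0.10 and -0.04, with 2 changed at 24 h and 4 at 48 h. Of these 81 genes, 33 were above 0 at 24 h (40.7%, against 53.5% of all genes) and 39 at 48 h (48.1%, against 47.5%), so that at 48 h they lay close to all genes. In the lincRNA genes below the limit, with a highest FPKM from 1 to under 2 and so also chosen by their highest value, 39% of 105 tested at 24 h and 40.1% of 157 at 48 h were above 0, with a median of -0.18 and -0.20.

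**Figure D2:**
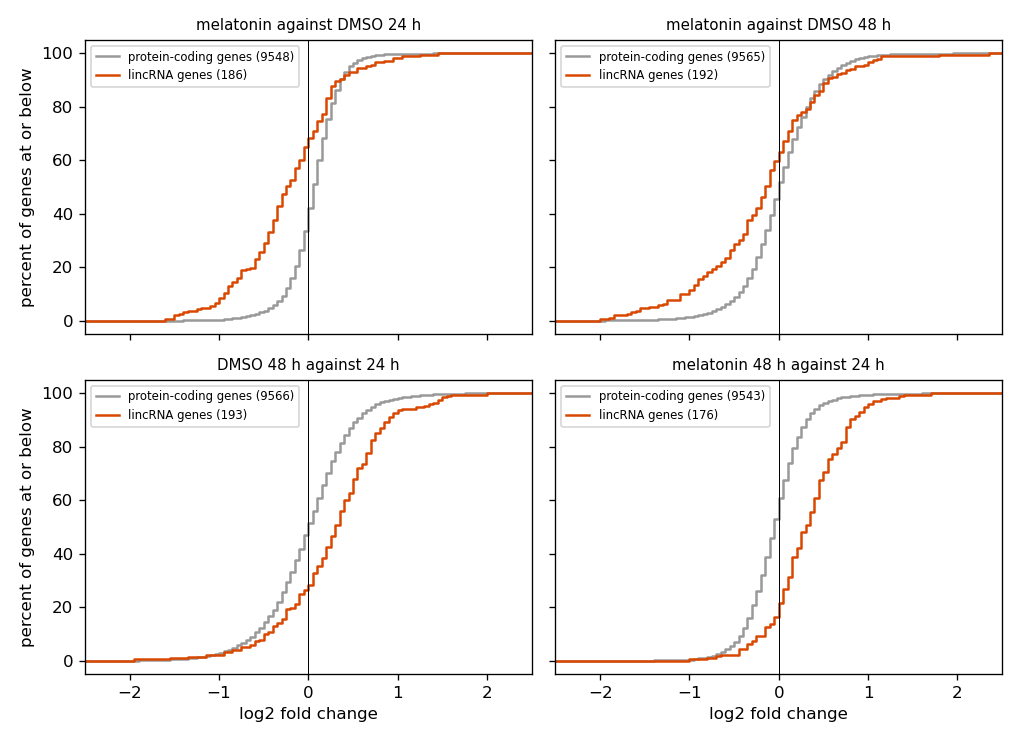
Percent of genes at or below each log2 fold change in 4 comparisons, with the number tested in brackets. Orange shows the lincRNA genes and grey the protein-coding genes of the comparison set, which met the same minimum length and level. The lincRNA curve lies to the left of the grey one in the lower range of both melatonin comparisons and to the right of it in both comparisons of 48 h with 24 h, where the medians were 0.28 and 0.27.

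The 2 melatonin comparisons share no library and were set side by side. Of 183 genes tested at both times, 2 were past 2-fold higher in both, 6 past 2-fold lower in both and 0 in opposite directions. Of all 12775 genes tested at both times, 35 (0.274%) were past 2-fold higher in both and 76 (0.595%) lower in both. In opposite directions were 41, so that few or none of 183 genes would be opposite at that share. In the comparison set these counts were 9, 21 and 2 of 9534. Below 0 at both times were 51.4% of the lincRNA genes and 30.7% of the comparison set, and above 0 at both times were 22.4% and 37.1%. Across the genes, Pearson's r was 0.71 and Spearman's rho 0.66 (n = 183), against 0.58 and 0.54 in the comparison set (n = 9534). Genes are not independent replicates, and each time point rests on 1 library a side.

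**Figure D3:**
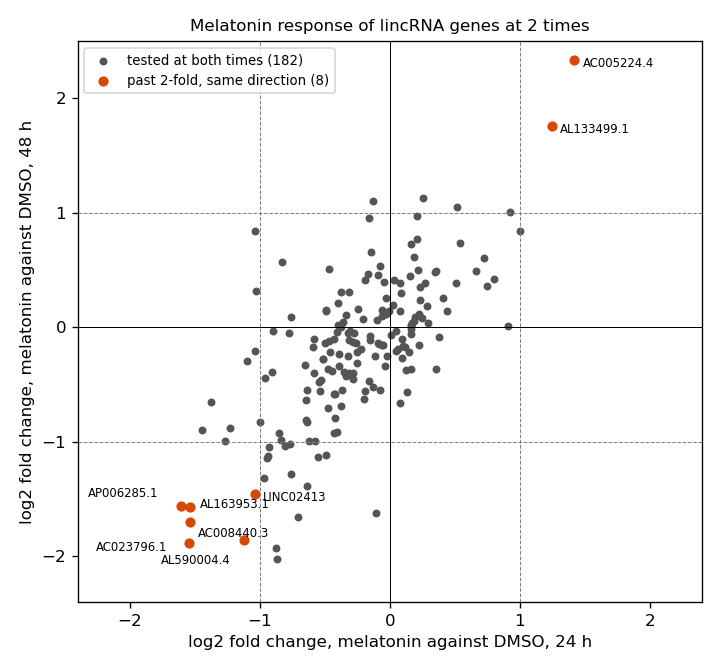
Each point is 1 lincRNA gene, with its log2 fold change (melatonin against DMSO) at 24 h on the horizontal and at 48 h on the vertical axis, and dashed lines at 2-fold. The 8 genes past 2-fold in the same direction are named, 2 at the upper right and 6 at the lower left, and no plotted gene lies past 2-fold in opposite directions (182 of the 183 genes are plotted).

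The 2 genes that rose at both times were AC005224.4, described above, and AL133499.1 (chr21:45100487-45101094). AL133499.1 had 0.45 FPKM at DMSO 24 h, 2.43 at melatonin 24 h, 0.15 at DMSO 48 h and 2.89 at melatonin 48 h, from 5, 30, 2 and 39 reads. The intervals were 0.145 to 1.05 against 1.64 to 3.47 FPKM at 24 h and 0.018 to 0.542 against 2.05 to 3.95 at 48 h. Both melatonin values were above both DMSO values, with log2 fold changes of 1.25 and 1.76. It is 1 exon block inside ADARB1, on the opposite strand, and shares no exonic base with it. ADARB1, an RNA-editing deaminase, had 3.21, 5.04, 3.16 and 5.32 FPKM and was higher in the same libraries (log2 fold change 0.52 and 0.60). Since the strand setting of the counting is not stated, reads of the 2 genes cannot be told apart.

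The gene at the lowest level among those that fell at both times was AP006285.1 (LINC02708, chr11:1688297-1689056). It had 22 reads at DMSO 24 h and 25 at DMSO 48 h (2.04 and 1.94 FPKM) and 0 reads in both melatonin libraries. Against a floor of 3 reads per library it was at least 8.10-fold lower at 24 h and at least 8.44-fold lower at 48 h. AC023796.1 (chr12:24704565-24774213) had 4.07 and 3.68 FPKM in DMSO and 0.74 and 0.27 with melatonin, from 50, 54, 10 and 4 reads.

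AC008440.3 (chr19:53864763-53866140), 83 bp from the myeloid-associated gene MYADM, fell from 7.07 to 1.78 FPKM at 24 h and from 12.8 to 3.25 at 48 h. MYADM was nearly level at 24 h (log2 fold change 0.01) and at 48 h had a log2 fold change of -0.32. AL163953.1 (chr14:53599832-53614026) fell from 3.08 to 0.41 FPKM and from 4.90 to 0.99. Its nearest coding gene, BMP4, a secreted growth factor, lies 335710 bp away.

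AL590004.4 (chr6:3904920-3911979), a single-exon gene of 7060 bp, rested on the most reads of the 6. It had 399 reads at DMSO 24 h and 125 at melatonin 24 h, then 957 and 153 at 48 h, or 3.08, 0.87, 6.18 and 0.98 FPKM. The log2 fold changes were -1.12 and -1.86. LINC02413 (chr12:92999218-93019820) had 1.79 and 3.43 FPKM in DMSO and 0.35 and 0.61 with melatonin. In all 6 genes both melatonin values lay below both DMSO values. No coding neighbour of a changed lincRNA gene passed 2-fold in the same direction in either comparison.

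**Figure D4:**
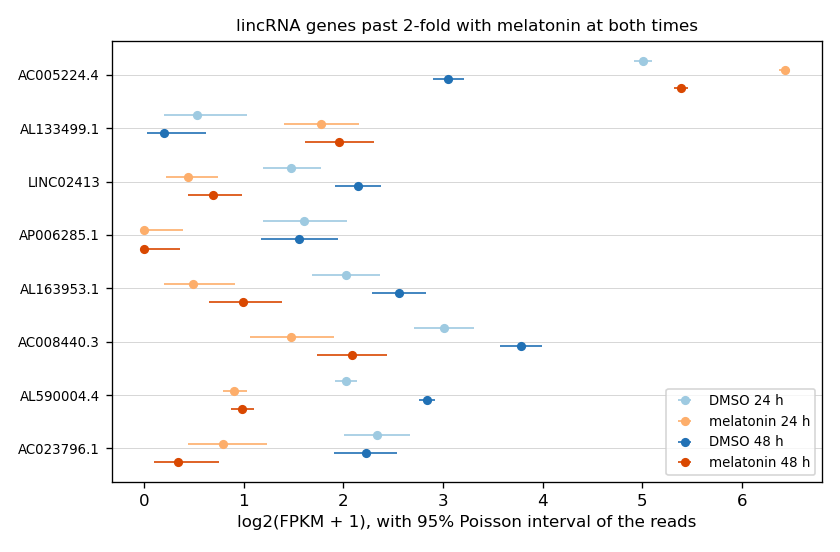
The 8 lincRNA genes past 2-fold with melatonin at both times, on an axis of log2(FPKM + 1), with 1 point per library and its 95% Poisson interval. In the upper 2 genes the melatonin points (orange) lie to the right of the DMSO points (blue), and in the lower 6 they lie to the left, with AP006285.1 at 0 in both melatonin libraries.

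At 24 h the third gene past 2-fold higher was AC019069.1 (HK2-DT, chr2:74832655-74833987), which overlaps the start of HK2 on the other strand. It had 2.08 FPKM at DMSO 24 h, 5.18 at melatonin 24 h, 1.61 at DMSO 48 h and 3.68 at melatonin 48 h, with log2 fold changes of 1.00 and 0.84. Centred on the median of all genes, its value at 24 h was 0.98, and the call was lost. HK2, the hexokinase that starts glycolysis in many tumours, had 79.4, 69.8, 62.2 and 47.6 FPKM and moved the other way (-0.18 and -0.38). All 3 genes past 2-fold higher at 24 h overlapped a coding gene, and so did 1 of the 16 that fell. Of genes tested at 24 h, the 44 overlapping a coding gene had a median of 0.00, and the 142 others one of -0.32, with 37 above 0. At 48 h these medians were -0.09 (46 genes) and -0.18 (146 genes).

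The largest further falls at 24 h were in genes with few reads. AC148476.1 had 28 reads at DMSO 24 h and 2 at melatonin 24 h (2.16 and 0.14 FPKM), but 1 and 6 reads at 48 h, so that only the DMSO 24 h library was high. AC068506.1, 169 bp from DTNA, fell from 2.52 to 0.29 FPKM and had a log2 fold change of -0.89 at 48 h. AC017104.3, 378 bp from the nucleolin gene NCL, fell from 2.49 to 0.35 FPKM and had 1.45 and 0.56 FPKM at 48 h. AP001065.1 (LINC02575) was better covered, with 333 reads at DMSO 24 h and 142 at melatonin 24 h. Its FPKM was 19.9 and 7.68 at 24 h and 16.4 and 7.70 at 48 h, with the same direction at both times. The 16 genes that fell at 24 h had a median length of 670 bp, against 1506 bp for those within 2-fold. Of the 16, 14 were shorter than 1000 bp, as were 74 of the 186 genes tested. At 48 h the 22 genes that fell had a median length of 1259.5 bp, against 1442 bp. Of the 22, 10 were shorter than 1000 bp, as were 74 of the 192 genes tested.

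Several of the largest falls at 48 h were in genes whose DMSO 48 h value stood above the other 3 libraries. LINC02313 had 3.76, 1.61, 11.4 and 2.05 FPKM and a log2 fold change of -2.02 at 48 h. LINC02365 had 8.81, 4.35, 28.4 and 6.75 FPKM (-1.92). In both genes the melatonin 48 h value was below DMSO 24 h as well.

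AC084018.1, which overlaps RHOF on the other strand and also the lincRNA gene LINC01089, had 5.14, 2.76, 13.1 and 3.46 FPKM (-1.66). LINC01637, 429 bp from AIFM3, had 2.63, 2.38, 5.53 and 1.12 FPKM (-1.62), with no fall at 24 h (-0.10). AC021491.4, 409 bp from RSAD1, had 5, 11, 126 and 19 reads and rose only at DMSO 48 h (2.23 FPKM against 0.11 at DMSO 24 h and 0.33 at melatonin 48 h).

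The rises past 2-fold at 48 h alone were small. AC010654.1, divergent to ZC3H7A, had 0.81, 1.16, 0.45 and 2.17 FPKM (log2 fold change 1.13). LINC02323 had 2.45, 2.15, 0.34 and 1.88 FPKM (1.10), so that DMSO 48 h stood alone at the low end. AL118558.3 had 1.51, 2.60, 0.55 and 2.21 FPKM (1.05), and FLJ20021, inside PPP3CA on the other strand, had 1.24, 3.25, 1.79 and 4.62 FPKM (1.01). In the last 2 genes both melatonin values were above both DMSO values.

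Between 24 h and 48 h the lincRNA genes lay higher at the later time, in comparisons that share their libraries with those above. In DMSO, 12 of 193 genes tested were past 2-fold higher at 48 h and 4 lower, 8.29% in all, against 7.74% of all genes (3.5% higher and 4.24% lower) and 4.66% of the comparison set. Above 0 were 71.5% of the lincRNA genes, against 50.3% of all genes and 48.4% of the comparison set. In melatonin, 7 of 176 were past 2-fold higher and 1 lower, 4.55%, against 4.15% of all genes (2.45% and 1.71%) and 0.964% of the comparison set. Above 0 were 78.4%, against 45.1% and 39.2%. The median was 0.28 in DMSO and 0.27 in melatonin, with the median of all genes at 0.00 and -0.04. The 81 genes at 2 FPKM or more in every library gave 0.21 and 0.22. TPM moved the median of all genes to 0.46 in DMSO and 0.23 in melatonin, and the lincRNA median relative to it was 0.31 and 0.34. TPM also moved the split of calls, to 67 higher and 4 lower in DMSO (16.4% and 3.91% of all genes) and to 39 higher and 0 lower in melatonin (8.58% and 3.19%). With mitochondrial genes left out of the TPM total, the split was 24 higher and 11 lower in DMSO (9.47% and 9.84% of all genes) and 28 higher and 2 lower in melatonin (8.73% and 5.29%).

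Some genes known to respond to stress or to p53 rose with time in DMSO. Of 22 names listed, 8 were among the 195 genes. In this list 3 were past 2-fold higher at DMSO 48 h against DMSO 24 h, 0 of 7 tested changed with melatonin at 24 h, and 2 of 8 fell at 48 h. Of all genes, 3.5% were past 2-fold higher in DMSO over time and 3.32% lower with melatonin at 48 h. MIR22HG and PVT1 reached 2 FPKM only at DMSO 48 h, so the choice of genes built in a higher value there. Listed lincRNA genes below the limit lay near 0 or below over time in DMSO, such as LINC00941 (-0.05), LUCAT1 (-0.10) and MIR210HG (-0.55), while CYTOR had 0.27. Listed names with another biotype in the files were higher at DMSO 48 h. LINC-PINT rose by 1.19 (0.80 to 3.11 FPKM), DANCR by 0.80 and TUG1 by 0.28. MIR22HG, an early response gene and host of miR-22, had 0.80, 0.76, 6.18 and 1.93 FPKM, from 44, 46, 405 and 128 reads. It rose by 1.99 on the log2 scale in DMSO and had a log2 fold change with melatonin of -0.03 at 24 h and -1.29 at 48 h. It overlaps WDR81 on the other strand without a shared exonic base, and WDR81 varied from 9.19 to 10.8 FPKM. MIR34AHG, host of the p53 target miR-34a, had 2.78, 1.68, 9.51 and 3.86 FPKM. Its log2 fold change with melatonin was -0.49 at 24 h and -1.11 at 48 h.

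EPB41L4A-AS1, described as p53-dependent, had 2.85 and 3.30 FPKM at 24 h and 8.77 and 8.85 at 48 h. It rose with time in DMSO and in melatonin (1.34 and 1.19), and melatonin differed little from DMSO at each time (0.16 and 0.01). MIR3142HG, host of miR-146a, had 1.02, 1.59, 4.40 and 3.19 FPKM and rose with time in DMSO (1.42). PVT1, the neighbour of MYC on chromosome 8, had 1.39, 1.09, 2.97 and 1.70 FPKM, and MYC had 60.8, 70.2, 91.0 and 63.6. TP53TG1 (2.64 to 3.73 FPKM) and MIR4435-2HG (2.23 to 3.53 FPKM) stayed within 2-fold in each comparison. The remaining hosts, LINC00969 (1.41 to 2.17 FPKM) and MIR4713HG (1.49 to 2.19 FPKM), did as well.

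Of 25 names of liver and liver cancer lncRNAs, 2 were among the 195 genes by the names in the files, and 0 of these 2 changed with melatonin. FP700125.1, also among the 195, is LINC01348 in RefSeq, a name on this list, but was not counted here. LINC01146 (HISLA), known as a stabiliser of HIF1A, had 6.27, 2.74, 8.32 and 5.87 FPKM, with log2 fold changes of -0.96 and -0.44. LINC00511 had 2.66, 3.27, 4.96 and 4.36 FPKM, higher at 48 h in both treatments. Of 17 names of widely expressed lncRNAs, 2 were among the genes, NORAD and LINC00667 (2.06, 2.25, 2.80 and 3.70 FPKM), and of the 4 names of the X inactivation centre there were 0. Of 10 names listed as encoding a small protein, the 1 present was LINC01003 (2.07, 3.07, 2.61 and 3.32 FPKM), whose place in that list is not certain. None of LINC01146, LINC00511, NORAD, LINC00667 and LINC01003 passed 2-fold with melatonin. Of the names on these lists that were not among the 195 genes, DANCR (33.8 and 15.7 FPKM at 48 h) and FAM99B (1.03 and 0 FPKM at 48 h), which have another biotype in the files, were past 2-fold lower at 48 h.

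The word intergenic did not hold for all the genes. By the coordinates of the files, 46 overlapped a protein-coding gene, 28 on the opposite strand only and 18 on the same strand. Of the 44 of these with exons in GENCODE 44, 26 shared exonic bases with the coding gene and 18 shared none. Of the 149 without overlap, 63 lay within 5 kb of a coding gene, and the median distance was 9185 bp. A coding gene started within 1 kb in the divergent direction for 38 of the 195. In 69 of 186 genes GENCODE 44 gives a single exon block. The lincRNA genes also overlapped each other in 4 pairs, LINC01089 with AC084018.1, LINC00526 with LINC00667, LINC01291 with AC104135.1 and LINC00242 with LINC00574.

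The change of a lincRNA gene with melatonin was weakly related to that of its nearest coding gene. Over pairs in which both genes were tested, Pearson's r was 0.18 at 24 h (n = 145) and 0.20 at 48 h (n = 152). It was 0.41 and 0.39 in the overlapping pairs (n = 32 and n = 34) and 0.09 and 0.13 in the others (n = 113 and n = 118). Overlapping pairs can share reads. In the divergent pairs r was 0.05 at 24 h (n = 33) and 0.17 at 48 h (n = 35). Spearman's rho over all pairs was 0.11 at 24 h and 0.18 at 48 h. It was 0.28 and 0.38 in the overlapping pairs, 0.05 and 0.12 in the others, and -0.16 and 0.17 in the divergent pairs. Of the changed lincRNA genes with a tested neighbour, the neighbour had the same sign in 10 of 15 at 24 h and in 16 of 23 at 48 h.

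**Figure D5:**
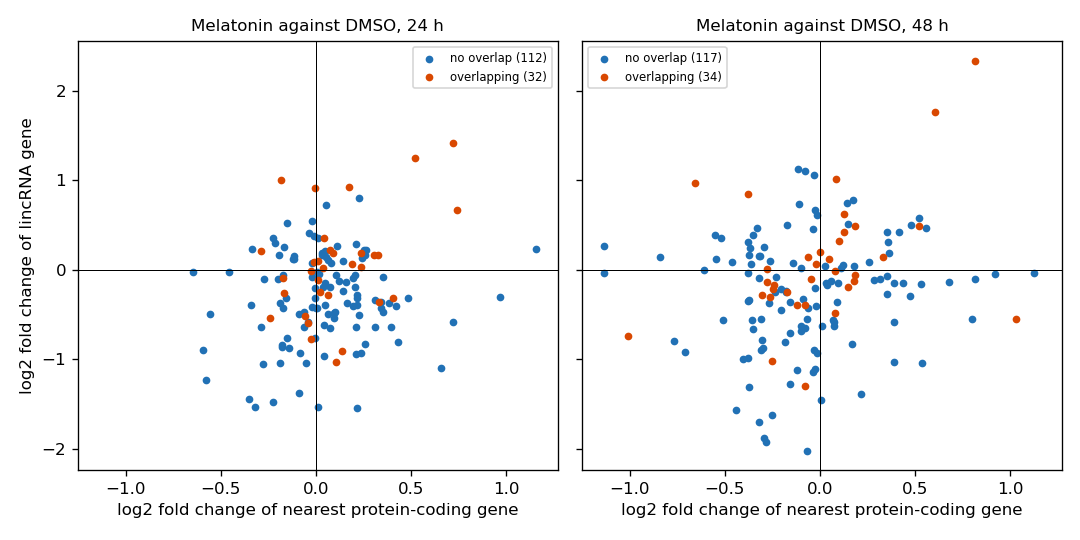
Log2 fold change (melatonin against DMSO) of each lincRNA gene against that of its nearest protein-coding gene at 24 h (left) and 48 h (right), for pairs with both genes tested (1 pair left out in each panel), in orange where the genes overlap. The 2 orange points at the upper right of each panel are AC005224.4 with HS3ST3B1 and AL133499.1 with ADARB1, and the other points spread widely in the vertical direction at small changes of the coding gene.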

How the data were processed

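RNA of HepG2 cells was sequenced in 4 libraries, 1 per condition. By their methods the authors selected polyadenylated RNA and aligned the read pairs to hg38 using MapSplice. The submitters' processing notes name Bowtie2 2.0.6, TopHat2 2.0.9, Cufflinks 2.1.1 and Cuffdiff 2.1.1. The authors deposited FPKM per Ensembl gene, which is already divided by gene length and library size, together with the length. The strand setting, the treatment of multi-mapping reads and the length method are not given in the sources used here.

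The product of FPKM and length was a multiple of a fixed step for 100% of values above 0 (within 0.02 reads or the rounding of the file), which gave the reads per gene. These were used for exact 95% Poisson intervals and a floor of 3 reads, and no count model was run since each group has 1 library. Intervals and floors cover counting error only. Depth was 21616676, 22850046, 23086025 and 22820651 reads on genes. The step implied library sizes of 18357838, 20283332, 21930408 and 22205042 in the same order, each below the reads on genes. By these sizes 3 reads on a gene of 500 bp are 0.27 to 0.33 FPKM. With summed reads as library size, the median of all genes in DMSO over time was 0.14 (0.00 as reported). That of the lincRNA genes was 0.39 (0.28 as reported). Fold changes are log2((FPKM + 1)/(FPKM + 1)) over genes at 1 FPKM or more in either library, with a threshold of 2-fold, and no test of a condition was made. A model that takes both times together was not run. Genes named were the 10 with the highest mean and those past 2-fold with melatonin at both times. Up to 8 of the largest rises and 8 of the largest falls past 2-fold in each melatonin comparison were added. In DMSO from 24 h to 48 h the 5 largest rises and the 4 falls past 2-fold were chosen. Of these falls, that of AL008721.1 was not described. Members of hand-written lists, matched by the names in the files, were named as well. FP700125.1 and LINC02001 were named for their RefSeq symbols. AL645933.2, BX890604.1 and the genes beside the limit or in overlapping pairs were named for those features, and list names outside the 195 genes after their values were seen. The genes and lists were chosen with earlier results of these data known. Exons came from GENCODE 44, and promoters and microRNAs from RefSeq, matched by symbol or gene ID. Calling was tested on simulated data, with 4-fold changes set only in genes at 5 FPKM or more in either library and with Poisson noise only. Changes in lower genes, where most of the 195 genes lie, and variation between libraries beyond counting error were not covered. Alternatives were another pseudocount, level and read filters, a 1.5-fold threshold, scalings and other choices of members. Python 3.11.15, pandas 2.3.3, numpy 2.4.6 and scipy 1.17.1 were used.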

Additional observations from a re-analysis of the deposited data

Results flagged for a closer look

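AC093752.2 (chr4:119456350-119457277, 573 bp) was the 1 lincRNA gene of 183 tested at both times whose Poisson intervals lay apart in opposite directions at the 2 times. It had 26 reads at DMSO 24 h and 8 at melatonin 24 h, and 11 and 30 at 48 h, or 2.47, 0.69, 0.88 and 2.36 FPKM. The log2 fold change with melatonin was -1.04 at 24 h and 0.84 at 48 h. The difference between the times was not tested. Among the 9534 protein-coding genes of the comparison set tested at both times, 484 had intervals apart in opposite directions.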

How the results depend on the processing

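With 1 library per condition no library could be left out and no value has a replicate error. No paired analysis was possible because each comparison has 1 library a side and so shares only 1 replicate number. A model of treatment and time over all 4 libraries was not run. Values are given in the order melatonin against DMSO at 24 h, the same at 48 h, DMSO 48 h against 24 h and melatonin 48 h against 24 h. The number changed was 19, 28, 16 and 8. With a pseudocount of 0.1 it was 43, 52, 45 and 30, and with a threshold of 1.5-fold 55, 63, 66 and 44. In TPM it was 30, 48, 71 and 39, and without mitochondrial genes in the total 44, 51, 35 and 30. TPM values are larger than FPKM here, so the added 1 and the minimum of 1 weigh less. A minimum of 5 FPKM gave 4, 11, 9 and 5 of 38, 51, 47 and 39 tested, and a minimum of 50 reads 6 at 24 h.

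The percent of genes above 0 was 31.7, 37, 71.5 and 78.4. It was 47.4 at 24 h and 83.0 in DMSO over time with a minimum of 5 FPKM, 39.6 and 79.6 for the same comparisons with a minimum of 50 reads, and 40.9 at 24 h, 86.1 in DMSO over time and 89.6 in melatonin over time in TPM. With library size taken as the summed reads it was 85.8 in melatonin over time. The other settings listed in the methods stayed within 1.5 times the count or within the 95% Clopper-Pearson interval of the share.

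Other choices of genes, added after the data were seen, moved the counts. The 123 genes with a mean FPKM of at least 2 had 9, 17 and 10 changed in the first 3 comparisons. The 81 genes at 2 FPKM or more in all 4 libraries had 2, 4, 6 and 5 changed, and 40.7% and 48.1% above 0 with melatonin at 24 h and 48 h. Genes without overlap of a coding gene had 4 changed in melatonin over time. A limit of 5 FPKM in any library would choose 54 genes. Of 33 calls in named genes with melatonin, 33 stayed past 2-fold with the other pseudocount and in both TPM scalings, and 32 after centring or with summed reads, with 0 reversed. At this depth a gene of 500 bp below about 0.3 FPKM rests on 3 reads or fewer.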
